A study of Mus musculus with 6 samples.

Results

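The genes of PI3K, AKT, SGK and mTOR signaling were described in the mouse uterus with and without Foxo1. The 40 members are the kinases, phosphatases and regulators upstream of and parallel to the FOXO1 protein, picked by gene symbol out of 23420 genes with a value. The study sequenced uterine RNA of C57BL/6J females that were 8 weeks old, at pseudopregnancy day 4.5, after mating with vasectomized males. Control females were Foxo1f/f, with both Foxo1 alleles floxed around the second coding exon, and knockout females were PgrCre/+ Foxo1f/f, called Foxo1d/d. Each genotype had 3 libraries, and each library held RNA pooled from 2 females. Cre is driven by the Pgr locus and deletes in the uterine epithelium and stroma from birth, and also in the pituitary and in granulosa cells of the ovary, while FOXO1 protein is retained in uterine blood vessels. The controls carried no Cre, and an effect of the PgrCre allele itself cannot be told apart from that of the deletion.

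Class I PI3K pairs a catalytic with a regulatory subunit and makes the membrane lipid PIP3 when insulin or growth factor receptors are engaged. PIP3 brings AKT to the membrane, where PDK1 and mTOR complex 2 activate it. AKT and the related SGK kinases phosphorylate FOXO1 and keep it out of the nucleus, and AKT also releases the TSC brake on RHEB and mTOR complex 1, which acts on S6 kinases and 4E-BPs to raise protein synthesis. These steps are set by phosphorylation of proteins, which RNA levels do not measure.

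The comparison asks which of these genes differed in RNA level when uterine Foxo1 was deleted. The values are the authors' mean raw counts per gene over the 3 libraries of a genotype, with totals of 26125014 for Foxo1f/f and 27257963 for Foxo1d/d. Ratios are Foxo1d/d over Foxo1f/f on the log2 scale, after a pseudocount of 1 was added to each mean count and each was divided by its total, while folds were taken without the pseudocount. Single libraries were not analysed here, so no value has an SD and no test between the genotypes was made. Each interval is an exact 95% interval of the ratio of the summed counts, which leaves out the differences between pools and covers counting error only.

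Foxo1 itself (Entrez 56458) went from an authors' mean count of 3941 in the controls to 1456 in the knockouts. The log2 ratio was -1.50 (counting interval -1.55 to -1.45), a 2.82-fold lower level in the libraries labelled as knockout. The count spans the whole gene, and the deleted exon was not analysed separately. In bulk tissue, fewer cells of a type and less RNA per cell cannot be told apart. Markers of uterine tissue were present in both genotypes, with Hoxa10 as the most abundant per kilobase at 174 CPM (counts scaled to a total of 1e+06) per kilobase of exon in Foxo1f/f against 161 in Foxo1d/d.

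Most members lay close to equal levels in both genotypes. Among the 39 members whose counts averaged at least 10, 2 were at least 1.5-fold higher in Foxo1d/d, namely Ppp2r2b and Ppp2r2c, and 0 were at least 1.5-fold lower. Of all 15696 genes with such a count, 5.43% were at least 1.5-fold higher and 3.51% at least 1.5-fold lower, so the members' 5.13% on the higher side was close to the background. At the smaller threshold of 0.32 on the log2 scale, 7 members were higher, 17.9% of the 39, against 12.5% of all genes, and 0 were lower, against 9% of all genes. The count of lower members was 1 (Sgk3) after centring on the median gene and under trimmed mean scaling, while the 7 higher members were the same. They were Ppp2r2b, Ppp2r2c, Pik3r3, Pik3cg, Pik3r5, Irs1 and Tsc1. The median log2 ratio was 0.05 over the members and 0.02 over all genes, and the median absolute log2 ratio was 0.13 and 0.14. Member Sgk2, an SGK kinase, had authors' mean counts of 2 and 1, under the floor of a mean count of 3 in both genotypes, and no fold is given for it.

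**Figure D1:**
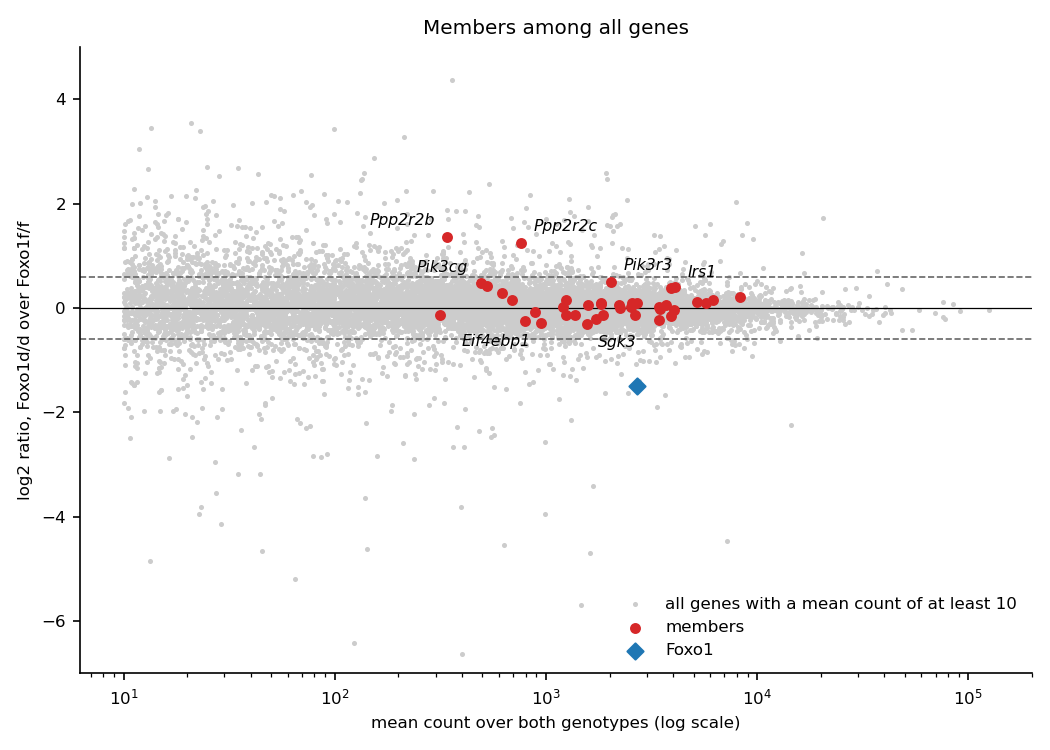
Log2 ratio between the genotypes, positive where Foxo1d/d is higher (vertical axis), against the mean count over both genotypes (horizontal log axis) for 15696 genes in grey, 39 members in red and Foxo1 as a blue diamond, with dashed lines at 1.5-fold. Ppp2r2b and Ppp2r2c lie above the upper line and the other 37 members lie between the lines.

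**Figure D2:**
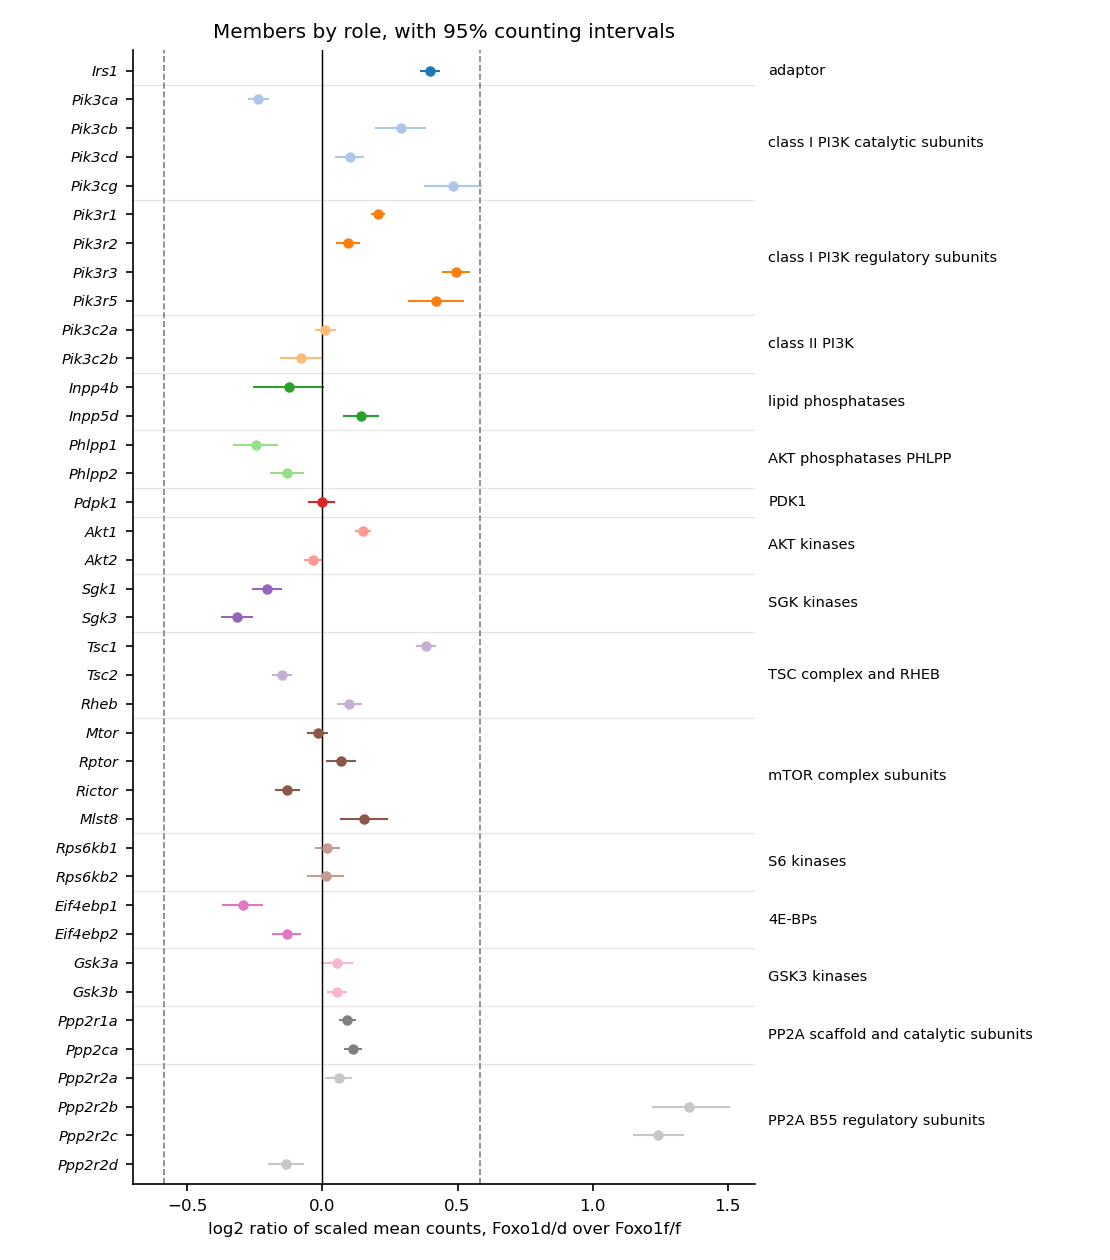
Log2 ratio of each of 39 members (points) with its 95% counting interval (bars), ordered by role, with dashed lines at 1.5-fold. The B55 subunits Ppp2r2b at 1.36 and Ppp2r2c at 1.24 stand to the right of the other members, which range from -0.32 for Sgk3 to 0.49 for Pik3r3.

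Upstream of PI3K, the adaptor Irs1 (Entrez 16367), which links insulin and IGF1 receptors to PI3K, had authors' mean counts of 3442 in controls and 4732 in knockouts. Its log2 ratio was 0.40 (0.36 to 0.43), a 1.32-fold higher level. A predicted gene on the opposite strand shares 30.9% of the exon bases of Irs1, so part of these reads may belong to it. Of the other 11 receptors and adaptors, 2 were at least 1.5-fold lower (18.2%, against 3.51% of all genes) and 0 were higher, and their median log2 ratio was -0.14. These were Irs2, a second adaptor of the same receptors, which went from 403 to 199 mean counts (-1.07, -1.22 to -0.93), and Igf1r, the IGF1 receptor, which went from 5393 to 3340 (-0.75, -0.79 to -0.72). The highest ratio of that list was 0.20, for the adaptor Gab3. The count of Irs1 per count of Irs2 was 8.55 in controls and 23.7 in knockouts, a 2.78-fold difference (log2 1.47, 1.33 to 1.62) that does not depend on the scaling to totals. Such ratios of gene pairs, here and further on, were chosen after the values of the genes were seen. The members and gene lists, too, were chosen with earlier results of these data known. A list's share set beside that of all genes is therefore description only, here and further on.

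The class I catalytic subunits differed in sign. Pik3ca, which encodes the broadly expressed p110 alpha, had 3642 mean counts in controls and 3224 in knockouts, with a log2 ratio of -0.24 (-0.28 to -0.20). Pik3cb, for p110 beta, went the other way from 545 to 695, with 0.29 (0.20 to 0.38). Of the leukocyte-rich forms, Pik3cd for p110 delta had 0.10 (0.05 to 0.16) and Pik3cg for p110 gamma had 0.48 (0.38 to 0.59), the latter with 399 and 582 mean counts. The level of the whole family per kilobase of exon was nearly equal, at 33.4 and 33.6 CPM, 1.01-fold. Within it, the share of Pik3ca was 46.1% in controls against 38.8% in knockouts, and that of Pik3cd was 36.9% and 39.3%, about the same for both genes in the knockouts. That likeness rests on exon lengths, since per coding kilobase Pik3ca took 57.7% and 50.1% and Pik3cd 27.6% and 30.3%, with Pik3ca first in both genotypes. Per kilobase of exon, Pik3cb took 9.65% and 11.7%, and Pik3cg took 7.36% and 10.2%.

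All 4 class I regulatory subunits among the members had ratios above 0, as did 24 of the 39 members and 8649 of the 15696 genes. Pik3r1, the source of p85 alpha and the most abundant of them per kilobase, had 7501 and 9018 mean counts, with a log2 ratio of 0.20 (0.18 to 0.23). Pik3r2, for p85 beta, had 0.10 (0.05 to 0.14). Pik3r3 (Entrez 18710), for p55 gamma, had mean counts of 1644 and 2415, a ratio of 0.49 (0.44 to 0.55) and a 1.41-fold higher level. A predicted gene on the same strand shares 24.5% of the exon bases of Pik3r3, which leaves its count uncertain. Pik3r5, the p101 partner of p110 gamma, went from 436 to 609, with 0.42 (0.32 to 0.52). The summed level of the family per kilobase was 84.7 and 98.8 CPM, 1.17-fold higher in Foxo1d/d, and the share of Pik3r3 in it was 14.1% and 17.1%. The count of Pik3r1 per count of Pik3ca was 2.06 in controls against 2.80 in knockouts, a 1.36-fold difference.

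Pik3cg and Pik3r5, catalytic and regulatory subunits of the same enzyme, kept nearly the same proportion, with 0.915 counts of Pik3cg per count of Pik3r5 in controls against 0.956 in knockouts, and a change of this ratio was not detectable at this depth (log2 0.06, -0.08 to 0.21). Pik3r6, the other regulatory partner of p110 gamma, had 256 and 283 mean counts and a ratio of 0.08 (-0.06 to 0.23), and Pik3cg per count of Pik3r6 was higher in knockouts by log2 0.40 (0.22 to 0.57). Markers of leukocytes, where this enzyme is mainly found, were higher in Foxo1d/d as well. All 10 leukocyte markers with a mean count of at least 10 had ratios above 0, as did 8649 of the 15696 genes, and 7 of the 10 were at or above 0.32, against 12.5% of all genes, with a median of 0.37. The summed level of the 11 listed was 475 CPM in controls against 599 in knockouts, 1.26-fold higher. Coro1a, the most abundant per kilobase, had 0.49, the T cell gene Cd3e had 1.09 with 52 and 116.3 mean counts, and no marker was at 0. The myeloid markers Adgre1, Csf1r and Cd68 had 0.27, 0.16 and 0.13. Per count of Ptprc, the common leukocyte antigen, Pik3cg and Pik3r5 differed by log2 0.08 (-0.03 to 0.20) and 0.02 (-0.09 to 0.13), and both intervals include 0. Per count of Csf1r the differences were 0.33 (0.21 to 0.44) and 0.26 (0.15 to 0.37), and per count of Cd68 they were 0.35 (0.21 to 0.48) and 0.29 (0.15 to 0.42), so they depend on the marker taken. Pik3cd was lower per count of Ptprc, by -0.30 (-0.37 to -0.23). The part of leukocyte number in these results was not tested.

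The promoters of Pik3cg and Pik3r5 are shown because both genes were higher to a similar degree. Each window runs from 250 bases before to 50 after the annotated start, in RefSeq on GRCm38.p6, and was searched on both strands for the FOXO-type motif TGTTTAC and for its variants, TGTTTGC as well as TGTTTAT. Capitals mark a match in either direction. At least 1 motif lies in 12.5% of all 32851 promoters of this length, while 3.65% hold TGTTTAC, 5.07% hold TGTTTGC and 4.6% hold TGTTTAT. Of 51 promoters matched to 34 members, 3 held a motif (5.88%), both windows of Pik3cg and 1 of Akt1. The minus-strand window of Pik3cg at chr12:32208610-32208909 holds 2, TGTTTAT at bases 34 to 40 and the reverse complement of TGTTTGC at bases 120 to 126. The window of Pik3r5 lies at chr11:68431875-68432174 on the plus strand and holds 0. The other window of Pik3cg, which overlaps the first, holds TGTTTAC in reverse complement and also TGTTTGC. A match describes the letters of the window only.
Pik3cg: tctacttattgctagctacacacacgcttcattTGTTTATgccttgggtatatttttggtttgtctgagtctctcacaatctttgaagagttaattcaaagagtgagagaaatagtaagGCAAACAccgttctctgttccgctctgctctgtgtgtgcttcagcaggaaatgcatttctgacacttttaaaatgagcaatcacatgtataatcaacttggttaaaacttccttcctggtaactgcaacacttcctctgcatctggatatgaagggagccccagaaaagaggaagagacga
Pik3r5: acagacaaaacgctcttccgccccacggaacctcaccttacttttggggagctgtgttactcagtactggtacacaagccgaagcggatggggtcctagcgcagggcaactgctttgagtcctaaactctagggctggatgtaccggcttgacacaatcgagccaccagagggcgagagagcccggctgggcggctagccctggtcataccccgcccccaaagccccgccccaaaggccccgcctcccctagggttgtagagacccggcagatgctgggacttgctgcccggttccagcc

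The other PI3K genes listed, 7 in all, included 1 that was at least 1.5-fold higher (14.3%, against 5.43% of all genes). Pik3ap1, an adaptor of PI3K in B cells and macrophages, went from 850 to 1511 mean counts (0.77, 0.70 to 0.84). The lowest ratio there was -0.45, for Pik3ip1, an inhibitor of PI3K. The class II enzymes, which make other phosphoinositides in membrane traffic, were close to equal. Pik3c2a had a log2 ratio of 0.01 (-0.03 to 0.05), and its sign turns under ratios centred on the median gene and under trimmed mean scaling. A gene on the opposite strand covers 16.8% of its exon bases, which leaves its count uncertain. Pik3c2b had -0.08 (-0.16 to 0.00).

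Phosphatases that act against PI3K and AKT differed little. Inpp5d encodes SHIP1, which removes the 5-phosphate of PIP3 in blood cells, and had 0.14 (0.08 to 0.21), with a lower count per count of Ptprc (-0.25, -0.33 to -0.18). Inpp4b, which acts on the next lipid in that path, had -0.13 (-0.26 to 0.01). The AKT phosphatases of the PHLPP type did not pass either threshold, with -0.25 (-0.33 to -0.16) for Phlpp1, at 847 and 745 mean counts, and -0.13 (-0.19 to -0.07) for Phlpp2. Of 7 other phosphoinositide phosphatases, 0 passed 1.5-fold or the smaller threshold in either direction. Of all genes, 5.43% were higher and 3.51% lower past 1.5-fold, and 12.5% and 9% past the smaller threshold. The 7 ratios had a median of -0.10 and ranged from -0.21 for Inpp5k to 0.06 for Inpp5j.

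Pdpk1, which encodes the kinase PDK1 that activates AKT and SGK, was at 2195 and 2286 mean counts, a log2 ratio of 0.00 (-0.05 to 0.05). Akt1 was at 5725 and 6624 mean counts, with a ratio of 0.15 (0.12 to 0.18). Akt2, the form best known for insulin action, had -0.03 (-0.07 to 0.00). Per kilobase of exon, Akt1 took 72.0% of the summed level of these AKT members in the controls against 74.5% in the knockouts, and Akt2 took 28.0% and 25.5%. Per coding kilobase the lead was smaller, with 59.0% and 62.0% for Akt1 and 41.0% and 38.0% for Akt2. Akt1 was the more abundant in both genotypes by either length, and the sum per kilobase of exon differed by 1.07-fold. Among 7 AKT modulators listed, 6 with a mean count of at least 10, 2 were at least 1.5-fold lower (33.3% of the 6, against 3.51% of all genes) and 0 higher. Both encode Tribbles pseudokinases, Trib2 with 2236 and 1219 mean counts (-0.94, -0.995 to -0.878) and Trib3, which can bind AKT, with 283 and 155 (-0.93, -1.10 to -0.77). Trib1 had the highest ratio of the list, at 0.21. The upstream one of the Akt1 windows, at chr12:112674835-112675134 on the minus strand, holds TGTTTAC at bases 90 to 96, shown in capitals, and its other window holds 0 motifs.
Akt1: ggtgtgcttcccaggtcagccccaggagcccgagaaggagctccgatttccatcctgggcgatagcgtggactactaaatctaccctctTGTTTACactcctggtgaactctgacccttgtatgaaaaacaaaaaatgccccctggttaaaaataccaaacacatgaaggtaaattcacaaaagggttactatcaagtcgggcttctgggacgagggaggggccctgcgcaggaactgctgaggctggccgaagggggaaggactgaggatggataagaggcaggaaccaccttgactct

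Both SGK kinases with enough counts had ratios below 0, and neither was 1.5-fold lower. Sgk1, known in the uterus for its control of epithelial sodium channels, had 1801 mean counts in controls and 1629 in knockouts, a log2 ratio of -0.21 (-0.26 to -0.15). Sgk3, which binds an endosomal lipid, had 1704 and 1428, with -0.32 (-0.37 to -0.26), the lowest ratio among the 39 members. Before rounding it falls short of the smaller threshold, and it passes that threshold, at -0.34, after centring on the median gene and under trimmed mean scaling. Both genes were at similar levels per kilobase of exon, with 51.5% of the family for Sgk1 and 48.4% for Sgk3 in Foxo1f/f, and 53.4% and 46.5% in Foxo1d/d, while per coding kilobase Sgk3 came first, with 53.3% and 51.4%. The summed level of the family was 33.0 and 27.6 CPM per kilobase, 0.836 of the control level. The RNA of Ndrg1, whose protein is a standard substrate of SGK1, was at least 1.5-fold lower, with 7289 and 4226 mean counts (-0.85, -0.88 to -0.82). Phosphorylation of that protein was not measured.

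In the TSC complex, which holds RHEB and thus mTOR complex 1 in check, the partners differed in sign. Tsc1 had 3317 mean counts in controls and 4510 in knockouts, with a log2 ratio of 0.38 (0.34 to 0.42). Tsc2, the subunit with the enzymatic activity, had 4006 and 3772, with -0.15 (-0.19 to -0.11). Counts of Tsc1 per count of Tsc2 were 0.828 and 1.20, so that the gene with fewer counts in the controls had more in the knockouts, a 1.44-fold difference of the ratio (log2 0.53, 0.48 to 0.58). Per kilobase of exon, Tsc1 was at 16.4 and 21.4 CPM and Tsc2 at 24.2 and 21.8. Which gene leads depends on the length used, since per coding kilobase Tsc1 was at 36.5 and 47.5 CPM and Tsc2 at 28.3 and 25.5. Exons of Pkd1 on the opposite strand cover 10.9% of Tsc2. Rheb, the small GTPase that activates mTOR, had 0.10 (0.05 to 0.15).

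The 4 members in the mTOR complexes passed neither threshold. Mtor, the kinase of both complexes, had -0.02 (-0.06 to 0.02), Rptor, the defining subunit of complex 1, had 0.07 (0.01 to 0.12), and Rictor, that of complex 2, had -0.13 (-0.17 to -0.08). Mlst8, shared by both, had 0.15 (0.06 to 0.24), with 25.6% of its exon bases under a gene on the opposite strand. Of 7 other subunits listed, 1 was at least 1.5-fold lower (14.3%, against 3.51% of all genes), Deptor, an inhibitor bound to mTOR, with 675 and 408 mean counts (-0.79, -0.89 to -0.68), and the highest was Prr5 of complex 2, at 0.34. Among 23 genes that carry amino acid and stress signals to mTOR complex 1, 1 was at least 1.5-fold lower (4.35%) and 0 were higher. It was Sesn1, a stress-induced inhibitor of the path, with 4677 and 3112 mean counts (-0.65, -0.69 to -0.61). The highest there was Lamtor4, of the lysosomal Ragulator scaffold, at 0.24, and the median was -0.01.

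Downstream of mTOR complex 1, the S6 kinases were at equal levels in both genotypes. Rps6kb1 had a log2 ratio of 0.02 (-0.03 to 0.06) and Rps6kb2 had 0.01 (-0.06 to 0.08), and both signs turn under ratios centred on the median gene and under trimmed mean scaling. The leukocyte gene Ptprcap covers 20.2% of the exon bases of Rps6kb2 from the other strand. The translational repressors passed neither threshold, with -0.30 (-0.37 to -0.22) for Eif4ebp1, at 1022 and 869 mean counts, and -0.13 (-0.19 to -0.08) for Eif4ebp2. Their target Eif4e, the cap-binding factor of translation, had the highest ratio of the 18 listed outputs, at 0.34 (0.29 to 0.38). The count of Eif4ebp1 per count of Eif4e was 0.468 in controls against 0.302 in knockouts, 0.645 of the control value. With Eif4ebp3 included, whose locus overlaps another gene in the annotation and whose count is therefore uncertain, the shares per exon kilobase within the 4E-BP family differed by no more than the -2.17 percentage points of Eif4ebp1. Of the 17 outputs other than the deleted Foxo1, 1 was at least 1.5-fold lower, Ndrg1 (5.88%, against 3.51% of all genes), and 0 were higher, with a median of -0.17. The kinases of glycogen synthase, which AKT inhibits, were level, with 0.05 for Gsk3a (-0.01 to 0.11) and 0.05 for Gsk3b (0.02 to 0.09), and neither share changed between genotypes by more than 0.02 percentage points. Gsk3a held 61.2% of their level per kilobase of exon but 27.4% per coding kilobase, so which of them leads is not settled, and a gene on the opposite strand covers 19.3% of the exon bases of Gsk3a.

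PP2A is a phosphatase built of a scaffold, a catalytic and a regulatory subunit, and its B55 subunits direct it to AKT, among other proteins. The core differed little, with log2 ratios of 0.09 (0.06 to 0.12) for the scaffold gene Ppp2r1a and 0.11 (0.08 to 0.15) for the catalytic gene Ppp2ca, of which 42.0% of exon bases lie under a transcript from the other strand. Of the B55 genes, Ppp2r2a had 0.06 (0.01 to 0.11) and Ppp2r2d had -0.13 (-0.20 to -0.07). Ppp2r2b (Entrez 72930) had 184 mean counts in controls and 495 in knockouts, a ratio of 1.36 (1.22 to 1.51) and a 2.57-fold higher level. Ppp2r2c (Entrez 269643) had 438 and 1081, with 1.24 (1.15 to 1.34) and a 2.37-fold higher level. These B55 genes are best known from the brain, and they ranked 164 and 197 from the top among the ratios of 15696 genes. Their counting intervals overlap, and a change of Ppp2r2c per count of Ppp2r2b was not detectable at this depth (log2 -0.12, -0.29 to 0.05).

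Per kilobase of exon, both took smaller shares than Ppp2r2a and Ppp2r2d in both genotypes. Ppp2r2b was at 2.55 and 6.55 CPM per kilobase, and its share of the family was 5.07% in controls and 11.2% in knockouts. Ppp2r2c was at 4.10 and 9.70, with 8.16% and 16.6%. Together they made up 13.2% and 27.7% of the B55 level, while Ppp2r2d had 46.4% and 36.2% and Ppp2r2a had 40.4% and 36.1%. Per coding kilobase, Ppp2r2a came first, with 52.4% and 45.0%, and Ppp2r2d had 32.0% and 24.0%. By that length Ppp2r2c had 11.1% and 21.6%, close to Ppp2r2d in Foxo1d/d, and Ppp2r2b had 4.46% and 9.43%. The summed level of the family was 1.17-fold higher in Foxo1d/d per kilobase of exon and 1.22-fold higher per coding kilobase. Of 16 other PP2A genes, 0 passed 1.5-fold or the smaller threshold in either direction. Of all genes, 5.43% were higher and 3.51% lower past 1.5-fold, and 12.5% and 9% past the smaller threshold. The ratios of the 16 ranged from -0.24 for the B56 subunit Ppp2r5a to 0.22 for Set, an inhibitor of PP2A.

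**Figure D3:**
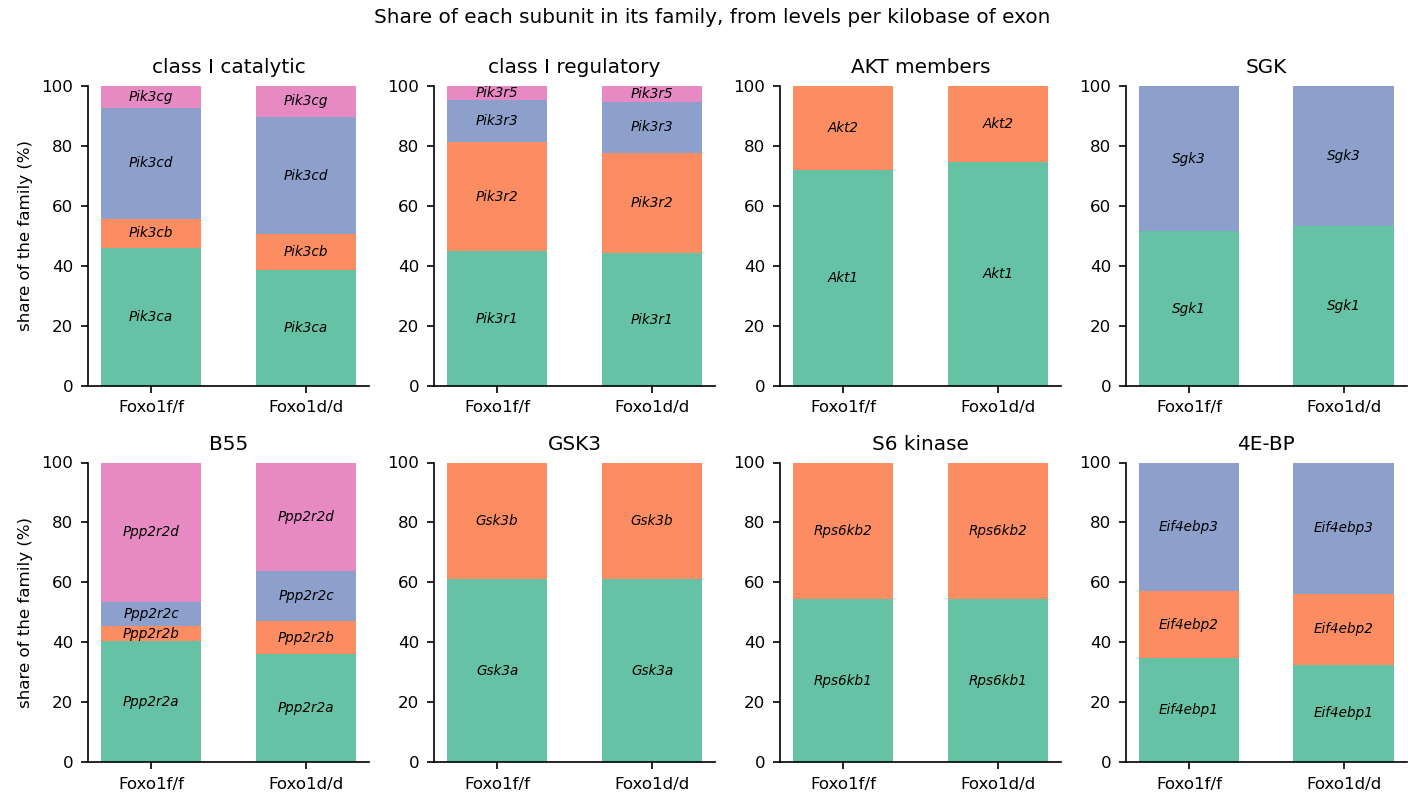
Share of each gene in its family (vertical axis, %), from CPM per kilobase of exon, as stacked bars for Foxo1f/f and Foxo1d/d in 8 families. Ppp2r2b and Ppp2r2c together go from 13.2% to 27.7% of the B55 family and Pik3ca from 46.1% to 38.8% of the catalytic subunits, while the GSK3 and S6 kinase bars look alike in both genotypes. The order of genes within some bars depends on the lengths used.

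The promoter of Ppp2r2c, at chr5:36868260-36868559 on the plus strand, is shown as that of a member past the fold. It holds 0 of the motifs, has a GC content of 72.7% against a median of 52.7% over all promoters, and contains 36 CG pairs. Members with no entry among the promoters were Ppp2r2a, Ppp2r2b, Sgk2, Sgk3, Eif4ebp1 and Rps6kb2.
Ppp2r2c: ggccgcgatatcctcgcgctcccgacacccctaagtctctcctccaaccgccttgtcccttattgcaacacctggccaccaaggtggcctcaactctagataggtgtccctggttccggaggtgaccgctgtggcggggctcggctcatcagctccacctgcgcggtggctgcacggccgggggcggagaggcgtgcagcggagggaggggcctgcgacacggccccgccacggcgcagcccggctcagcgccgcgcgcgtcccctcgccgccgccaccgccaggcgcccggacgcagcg

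Of 8 markers of neurons and glia, 6 had ratios above 0. Only 3 had a mean count of at least 10, with ratios from -0.18 to 0.33. Of these 3, 2 were above 0, against 8649 of all 15696 genes. The summed level of the 8 markers was 12.2 CPM in controls and 13.5 in knockouts, 1.10-fold. Syp, the most abundant of the 8 per kilobase, had -0.18 (-0.39 to 0.02), and the astrocyte gene Gfap had 0.33 (0.16 to 0.52). Elavl4 had 0.94 (0.08 to 2.22) from 4 and 9 mean counts, and the neurofilament genes Nefl and Nefm had at most 3.67 mean counts, with intervals that include 0. Adipocyte markers were higher along with these B55 genes, with 5 of 5 at least 1.5-fold higher in Foxo1d/d, against 5.43% of all genes. Fabp4, the most abundant per kilobase, had 1.71, Adipoq 1.82, Plin1 2.10, Cidec 2.19 and Lep 1.70, and their sum went from 10.2 to 36.7 CPM, 3.59-fold. Of 6 epithelial markers, 5 had ratios above 0, against 8649 of all 15696 genes, and 2 passed the smaller threshold, against 12.5% of all genes, Krt19 at 2.33-fold (1.22, 1.15 to 1.29) and Krt8 with a log2 ratio of 0.48 (0.44 to 0.52), while Krt18, the most abundant per kilobase, had -0.03, and the list summed to 561 and 655 CPM. The part of cell composition in the ratios of Ppp2r2b and Ppp2r2c was not tested.

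The other marker lists give the makeup of the tissue behind all members. Smooth muscle markers had ratios below 0 for 5 of 5 genes, 2 of them at or under -0.32, against 7047 of all 15696 genes below 0 and 9% at or under -0.32, with a sum of 6040 and 4895 CPM. Tagln, the most abundant per kilobase in Foxo1f/f, had -0.27, and Acta2, the most abundant in Foxo1d/d, had -0.15. Endothelial markers had ratios below 0 for 5 of 5, none of which passed a threshold, with -0.22 for Pecam1 and a sum of 1127 and 969. Stromal markers were mixed, with 2 of 6 above 0 and -0.05 for Col3a1, and summed to 0.984 of the control level. Of these 6, 1 passed the smaller threshold on the higher side, at 0.37, against 12.5% of all genes. The 5 uterine markers had a median of -0.04. Red blood cell markers were higher, with 2.23-fold for the beta globin gene Hbb-bs, the most abundant per kilobase, at 1087 and 2528 mean counts (1.16, 1.10 to 1.22), and 2.63-fold for Alas2 (1.39, 1.24 to 1.56). Of 7 listed, 6 were matched, and Hba-a1, Hba-a2, Hbb-b1 and Hbb-b2 were listed at 0 in both genotypes. Ovary and oviduct markers summed to 149 and 163 CPM, with 0.17 for Ovgp1 and Cyp19a1 at 0 and 0.33 mean counts. Of the 4 with a mean count of at least 10, 3 had ratios above 0, against 8649 of all 15696 genes. Among these 4, 1 passed the smaller threshold, against 12.5% of all genes, and the ratios ranged from -0.19 to 0.47. The part of these tissue differences in the members' ratios was not tested.

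**Figure D4:**
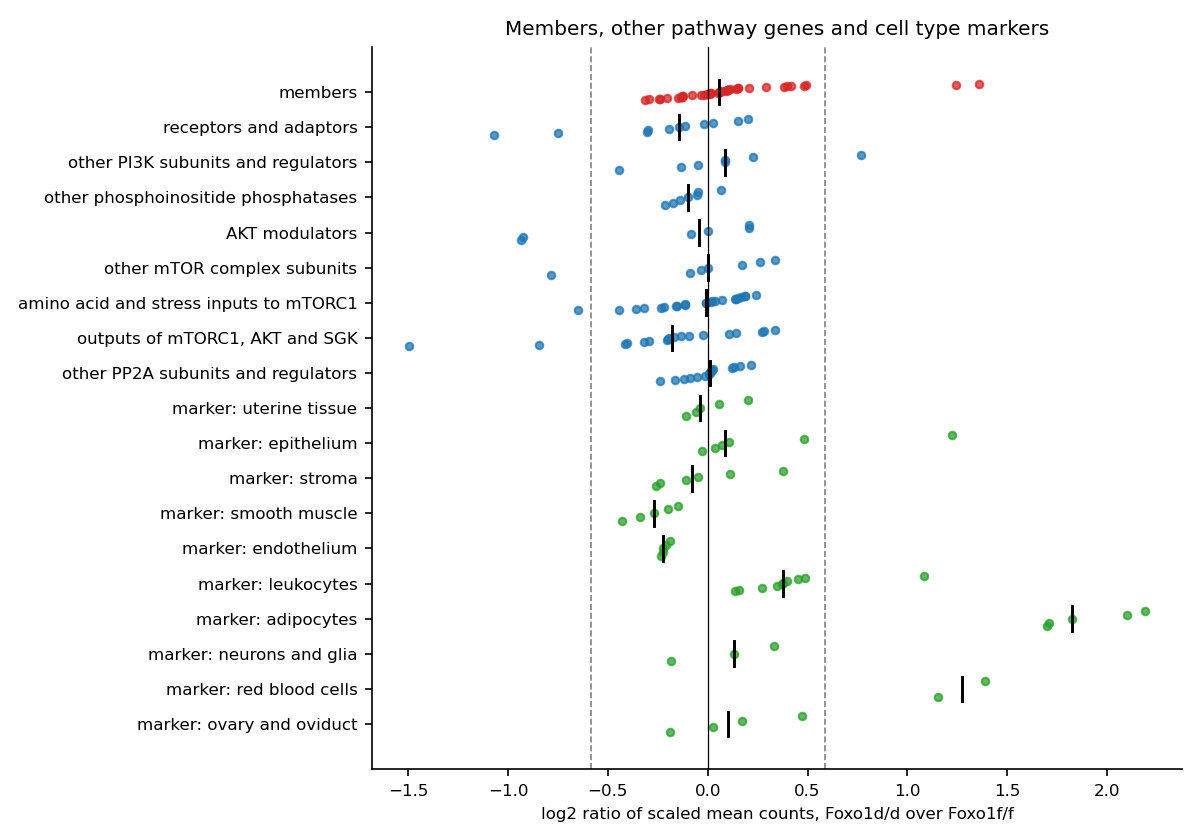
Log2 ratio between the genotypes, positive where Foxo1d/d is higher (horizontal axis), for each gene with a mean count of at least 10, as points, in the members (red), the other pathway lists (blue) and the marker lists (green), with black ticks at medians and dashed lines at 1.5-fold. The other pathway lists hold 8 genes left of the lower line, the deleted Foxo1 among them, and 1 right of the upper line, and the 5 adipocyte markers lie at 1.70 or above.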

How the data were processed

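Uterine RNA of 6 libraries, 3 for each genotype, was sequenced by the authors as paired ends with a TruSeq kit, and whether counting used strand is not given in the sources used here. The authors trimmed the reads, mapped them with STAR to RefSeq genes, removed duplicates with Picard, counted reads per gene with HTSeq and ran edgeR between genotypes, with no versions given in the sources used here. The study's text names the build mm10 and the submitters' processing notes name mm9. The authors deposited the mean raw count of each gene for each genotype, and 100% of these means are whole after multiplication by 3 to within 1e-06. The authors' fold change, log2 CPM, p-value and FDR columns stand in the same table and were not used here.

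The pseudocount was 1 and the minimum mean count over both genotypes was 10, and a gene was called past a 1.5-fold ratio. Clopper-Pearson intervals (95%) came from summed counts of 78375043 and 81773890, and those of gene pairs from a normal approximation on the log scale. The floor of a mean count of 3 corresponds to 0.115 CPM in Foxo1f/f and 0.11 in Foxo1d/d. Exon lengths and overlaps came from GENCODE vM21 (GRCm38), promoters from RefSeq on GRCm38.p6, and neither is tied to the authors' build. The members and gene lists were chosen with earlier results of these data known. All members are described. From each other pathway list the text names the highest and the lowest ratio and those past 1.5-fold, and from each marker list the most abundant gene per kilobase, those at 3 mean counts or less and those past 1.5-fold, while Ptprc, Csf1r, Cd68 and Eif4ebp3 are named as partners and Adgre1, Gfap, Elavl4, Krt8 and Pik3r6 after their values were seen. Adgre1 and Hbb-bs were matched through RefSeq synonyms to older symbols. The results for 1 pathway gene and 1 marker are not reported here, and they are left out of the family shares, lists and sums. Alternatives were pseudocounts of 0.1 and 5, median centring, trimmed mean and upper quartile scaling, a smaller fold (0.32 on the log2 scale) and a fold of 2, minimum counts of 1 and 50, and shares per coding kilobase or with no length. The ratio and interval were tested on simulated counts with Poisson error only. That setting holds no difference between pools, so it cannot show how the intervals fare with such differences. Python 3.11.15, numpy 2.4.6, pandas 2.3.3, scipy 1.17.1 and matplotlib 3.10.9 were used.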

Additional observations from a re-analysis of the deposited data

How the results depend on the processing

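No paired analysis was possible because the values are means over libraries and carry no replicate numbers, and for the same reason no library could be left out in turn. Ppp2r2b and Ppp2r2c stayed at least 1.5-fold higher under all 5 alternatives of pseudocount and scaling and at a fold of 2. The members above and below 0 were 24 and 15, and 21 and 18 both after centring on the median gene and under trimmed mean scaling, where Pik3c2a, Rps6kb1 and Rps6kb2 turned sign. Pik3r1 was 0.18 under trimmed mean scaling. At the smaller threshold of 0.32 (log2), 7 members and 1968 of all genes were higher and 0 members and 1412 of all genes were lower. In alternatives chosen after the data were seen, that threshold gave the same 7 members higher, and 1 lower (Sgk3) both with median centring and with trimmed mean scaling but 0 with the upper quartile. At a fold of 2 all genes gave 313 higher and 220 lower. With a minimum mean count of 1, all genes gave 1346 higher and 919 lower and 1 member was lower, Sgk2 with 2 and 1 mean counts. With a minimum of 50, all genes gave 528 higher and 357 lower. The share of Ppp2r2b in its family was higher in Foxo1d/d by 6.11 percentage points, by 4.97 per coding kilobase and by 5.12 with no length. For Ppp2r2c the difference was 8.39, 10.5 and 10.3, and for Pik3r3 it was 2.93, and 3.68 per coding kilobase. These shares move because the alternatives divide by other lengths, some of which also turn the order of genes within the class I catalytic and regulatory, SGK, GSK3, B55 and 4E-BP families and between Tsc1 and Tsc2. Depth limits Sgk2 and the rarest markers, and the spread between pools is unknown for every value.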
